A study of Mus musculus with 2 samples.

Results

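Macrophage transcripts were described in 348 cell barcodes of 1 pooled single-cell library of sorted CD4+ T cells. A barcode, the tag shared by all reads of 1 droplet, was a member when at least 2 of 7 genes had a UMI (unique molecular identifier, 1 counted RNA molecule). The 7 genes were C1qa, C1qb, C1qc, Vcam1, Hmox1, Slc40a1 and Cd5l, called the rule genes here. The barcodes searched had at least 500 genes, under 10% mitochondrial UMIs and at least 10 counts of a leading hashtag that made up at least 80% of their counts of hashtags 1 to 6. Of 22960 barcodes, 14382 passed these filters, of which 12624 had 0 rule genes, 1410 had 1, and the 348 members made up 2.42% (95% exact Clopper-Pearson interval 2.17 to 2.68%). Because the members were chosen on these counts, the rule genes are description, and so is every other gene of the same barcodes.

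VAT (visceral adipose tissue) and spleen were the sources, taken from Foxp3.Cre-YFP mice on a C57BL/6 background, in which Cre recombinase is driven from Foxp3, the gene of the Treg master regulator. The mice were Treg-bmal1WT or Treg-bmal1KO, kept in rooms with a reversed light cycle and sampled at ZT0 or ZT12 (zeitgeber time, counted from lights on). Per the labels, cells were marked with hashtag antibodies by genotype, time and tissue before pooling, and the number of animals is not given. Only 6 hashtags held counts, fewer than the combinations of these conditions, and they carry numbers without tissue, genotype or time. None was therefore assigned to a condition, and hashtags are not replicates of one another. With 1 library there is no test, and intervals cover counting error only.

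Each barcode was traced to its pool by 6 tags of 15 bases. Their deposited sequences, shown because every share by hashtag rests on them, are:
Hash1: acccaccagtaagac
Hash2: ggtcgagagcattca
Hash3: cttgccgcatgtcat
Hash4: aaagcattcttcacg
Hash5: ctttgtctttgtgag
Hash6: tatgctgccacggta
Hashtags 1 to 6 held between 560096 and 1053628 counts each, while hashtags 7 to 10 held at most 278. The expression library held 96923402 UMIs.

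Red pulp macrophages are the resident phagocytes of the spleen that clear aged red blood cells. Heme oxygenase, encoded by Hmox1, opens the heme ring, and ferroportin, encoded by Slc40a1, exports the iron to the blood. The transcription factor SPIC directs their development, VCAM1 is an adhesion molecule on their surface, and CD5L is a secreted scavenger protein that they share with other resident macrophages. The C1q chains start the classical complement cascade and are made by resident macrophages of many tissues, including adipose tissue. Macrophages of adipose tissue that lie along vessels are known for LYVE1, FOLR2 and CD163.

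The share of members was highest in hashtags 5 and 6. It was 1.52% (42 of 2769 barcodes, 1.10 to 2.04%) in hashtag 1, 1.11% (17 of 1529, 0.649 to 1.77%) in hashtag 2 and 0.778% (14 of 1799, 0.426 to 1.30%) in hashtag 3. It was 1.42% (18 of 1269, 0.843 to 2.23%) in hashtag 4, 3.39% (123 of 3626, 2.83 to 4.03%) in hashtag 5 and 3.95% (134 of 3390, 3.32 to 4.66%) in hashtag 6. The intervals of hashtags 5 and 6 lay above those of the other 4, and these 2 hashtags held 35.3% and 38.5% of all members. Barcodes with 4 or more rule genes made up between 0.167% (hashtag 3) and 1.5% (hashtag 6) of a hashtag.

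Barcodes with exactly 1 rule gene were spread almost evenly, from 8.96% of hashtag 2 to 10.6% of hashtag 4. Depth moved with the shares, since barcodes with 0 rule genes had medians of 2713 to 2779 UMIs in hashtags 1 to 4, 3364 in hashtag 5 and 3484 in hashtag 6. Thinned to 1500 UMIs per barcode, the shares in hashtag order were 0.954, 0.820, 0.528, 0.903, 1.87 and 2.31%, and the lower bound of hashtag 5 (1.44%) was then below the upper bounds of hashtags 2 (1.46%) and 4 (1.65%). Thinning left out between 4.34% (hashtag 6) and 15.8% (hashtag 3) of the barcodes as too shallow.

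**Figure D1:**
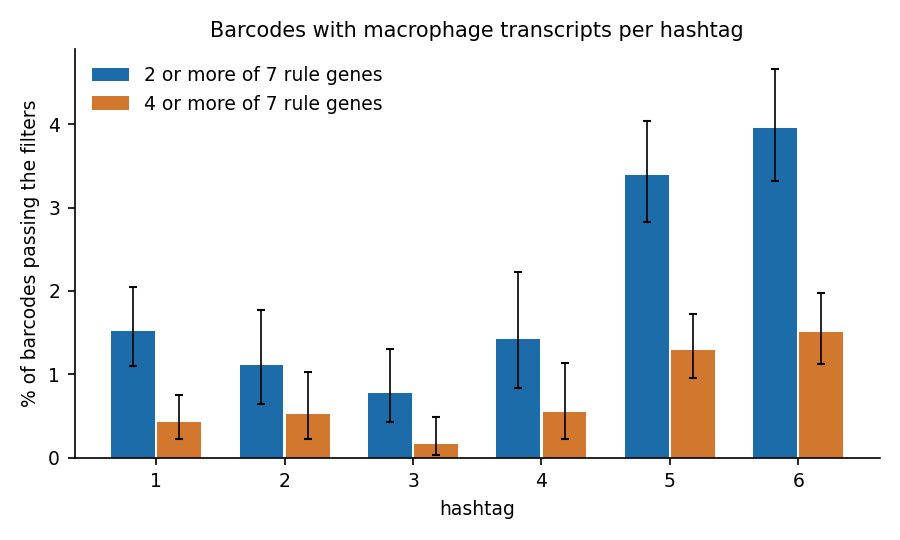
Share of barcodes passing the filters (y axis, %) with 2 or more (blue) or 4 or more (orange) of the 7 rule genes in each hashtag (x axis), with 95% Clopper-Pearson intervals as bars. Hashtags 5 and 6, at 3.39% and 3.95%, stand above hashtags 1 to 4, which lie between 0.778% and 1.52%.

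UMIs of the rule genes were also found in barcodes with genes of other cell types. A C1q UMI was found in 9.21% of all passing barcodes, in 17.3% of 75 B cell-like barcodes and in 11.3% of 142 endothelial-like barcodes. Named by at least 2 of 5 B cell genes or at least 2 of 3 endothelial genes, these had medians of 5613 and 4724 UMIs, against 3441 in members and 3118 in barcodes with 0 rule genes. Of them, 8% and 4.93% were members, so the share of members over all barcodes was not above that in these deeper cells and is not read as a share of cells that express the genes. After thinning the shares were 4.23% of B cell-like (0.880 to 11.9%), 2.94% of endothelial-like (0.807 to 7.36%) and 1.46% of all barcodes. Hmox1 was detected in 16.2% and Vcam1 in 4.23% of endothelial-like barcodes before thinning. Whether these cells express the rule genes themselves was not tested.

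Within the rule, 150 members had 2 rule genes, 70 had 3, 52 had 4, 37 had 5, 29 had 6 and 10 had all 7. All 3 C1q genes were present in 113 members, and 22 had none. C1qa was detected in 229 members, C1qb in 224, C1qc in 207, Hmox1 in 191, Vcam1 in 129, Slc40a1 in 112 and Cd5l in 55. Members held 91.0% of the Cd5l UMIs of all passing barcodes and 60.3% of the Hmox1 UMIs, the highest and lowest shares among the 7.

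The rule genes were few per barcode in most members and abundant in some. The lowest member had 2 rule-gene UMIs, the median 4, the upper quartile 10 and the highest 293. In 45 members the rule genes reached 20 or more UMIs, 14 in hashtag 1, 8 in hashtag 2, 3 each in hashtags 3 and 4, 5 in hashtag 5 and 12 in hashtag 6. These 45 barcodes held 75.2% of the members' C1q UMIs, but 29.0% of their Vcam1 UMIs and 31.0% of their Cd5l UMIs. Sums of C1q over all members therefore rest mostly on strong barcodes, and values are given by hashtag below.

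At the edge of the rule, the 150 barcodes with 2 rule genes had 30.2 CPM (UMIs per 1000000 UMIs) of Csf1r, the receptor of the macrophage growth factor, against 4.83 CPM in the 1410 barcodes with 1 rule gene and 2.26 CPM in those with 0. Fcer1g, an Fc receptor signalling chain, was at 184, 27.5 and 10.5 CPM in the same order. For these 2 genes, barcodes just outside the rule thus lay nearer to those with no rule gene. Apoe was at 239, 145 and 63.2 CPM in the same order, so there they lay near midway.

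Among the rule genes, Vcam1 and Cd5l were concentrated in hashtags 5 and 6. Vcam1 had 12.4, 19, 23.9, 41.9, 253 and 283 CPM in the members of hashtags 1 to 6, and was detected in 3 of 42, 2 of 17, 3 of 14, 4 of 18, 56 of 123 and 61 of 134. Cd5l had 1 UMI in each of hashtags 1 to 4, 25 UMIs in hashtag 5 and 42 in hashtag 6. Slc40a1 was at 33.6 to 65.7 CPM in the members of hashtags 1 to 4 and at 147 and 144 CPM in hashtags 5 and 6, and Hmox1 at 117 to 161 against 348 and 349 CPM.

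The balance of Vcam1 to C1q, both of which chose the members, is given as a description. Vcam1 made up 0.194% of the Vcam1 and C1q UMIs in the members of hashtag 1 (0.0401 to 0.567%), 0.297% in hashtag 2, 2.22% (0.609 to 5.59%) in hashtag 3 and 2.96% (0.967 to 6.77%) in hashtag 4. In hashtags 5 and 6 it made up 19.7% (16.5 to 23.2%) and 20.3% (17.4 to 23.5%). In barcodes with exactly 1 rule gene it lay between 6.67% (hashtag 1) and 15.4% (hashtag 2), with overlapping intervals. In hashtags 3 and 4 those intervals (5.27 to 15.4% and 6.16 to 17.8%) overlapped the members' own.

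Outside the rule, the 4 red pulp genes Spic, Treml4, Itgad and C6 also had their highest CPM in hashtags 5 and 6. The full list of 18 red pulp genes, none of them in the rule, did not. It summed to 2806, 2885, 1123, 1820, 956 and 897 CPM in the members of hashtags 1 to 6, lowest in hashtags 5 and 6. SPIC itself, whose gene was not used by the rule, was detected in 17 of 123 members of hashtag 5 (49.7 CPM, exact Poisson interval 31.1 to 75.2) and 24 of 134 of hashtag 6 (57.8 CPM, 38.7 to 83.0). It had 2 UMIs in hashtag 2, 1 in hashtag 3 and none in hashtags 1 and 4, where 0 UMIs allow up to 15.3 and 30.9 CPM. Treml4, a receptor of spleen macrophages, was detected in 14 and 13 members of hashtags 5 and 6 and in 0 members of hashtags 1 to 4. Itgad, an integrin subunit of red pulp macrophages, was at 33.9 CPM in both hashtags 5 and 6, at 12.4 CPM in hashtag 1 (3 UMIs) and at 0 in hashtags 2, 3 and 4. C6, a component of the terminal complement complex, was at 27.1 and 23.9 CPM in hashtags 5 and 6 and at 8.28, 6.33, 5.97 and 0 CPM in hashtags 1 to 4, from at most 2 UMIs each. With so few UMIs, the intervals of these 4 genes in hashtags 1 to 4 overlapped those of hashtag 5 or 6, except for Spic in hashtags 1 and 4 and Treml4 in hashtag 1.

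Genes listed for adipose tissue resident macrophages had higher CPM in the members of hashtags 1 to 4. Lyve1, the hyaluronan receptor of vessel-associated macrophages, had 488, 424, 113, 92.3, 4.52 and 0 CPM in hashtags 1 to 6, with its 217 UMIs in 24 barcodes. F13a1, which encodes a subunit of clotting factor XIII, had 861, 734, 293, 193, 6.78 and 0 CPM in the same order. Folr2, a folate receptor, had 762, 708, 131, 176, 2.26 and 12 CPM. Retnla, a secreted product of alternatively activated macrophages, had 7172, 3897, 741, 1594, 18.1 and 25.9 CPM. Each of these 4 genes was higher in every one of hashtags 1 to 4 than in hashtags 5 and 6. Of 9 adipose genes named below, at least 1 was detected in 23 of 42 members of hashtag 1, 12 of 17 of hashtag 2, 6 of 14 of hashtag 3 and 5 of 18 of hashtag 4. In hashtag 3 the stromal gene list had a larger sum (8291 CPM) than the adipose macrophage list (3064 CPM).

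Among macrophage list genes, the largest ratios between hashtags with 20 or more members (1, 5 and 6) were all highest in hashtag 1. Retnla was 397-fold and Folr2 337-fold above hashtag 5, where Folr2 rested on 1 UMI (2.26 CPM, 0.0572 to 12.6). Against 1 UMI each in hashtag 6, Cd209f and Mgl2, both C-type lectins, were 291-fold and 266-fold higher, Ltc4s, the leukotriene C4 synthase, 195-fold, Clec10a, a further lectin, 154-fold and the chemokine gene Ccl24 127-fold. F13a1, with 0 UMIs in hashtag 6, was at least 144-fold higher, taking 3 UMIs over the group as the floor. With 0 or 1 UMI in the lower hashtag, the size of such ratios is poorly determined.

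Strong barcodes carried much of these sums. Members with 20 or more rule UMIs held 95.6% of the Retnla UMIs and 94.1% of the UMIs of 9 adipose genes (Lyve1, Folr2, F13a1, Cbr2, Cd209f, Cd209g, Mgl2, Ltc4s and Clec10a), but 29.1% of those of the 4 red pulp genes Spic, Itgad, Treml4 and C6, sets picked after their values were seen. All members of hashtags 1 to 6 had 4491, 4017, 1099, 831, 36.1 and 35.9 CPM of the 9 adipose genes, and without the strong members 570, 104, 52.1, 56.8, 37.6 and 15.4 CPM. The 4 red pulp genes had 20.7, 19, 11.9, 0, 147 and 146 CPM in all members and 30.4, 13, 6.51, 0, 108 and 117 CPM without the strong ones. The order of the 4 red pulp genes was thus kept, with hashtags 5 and 6 above the rest, while the adipose genes of hashtags 3 and 4 came near those of hashtag 5.

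Barcode by barcode, 75 members had a UMI of the 4 red pulp genes only, 54 of the 9 adipose genes only, 11 of both and 208 of neither. In the same order, hashtag 1 held 1, 20, 3 and 18 of these members, hashtag 5 held 34, 8, 2 and 79, and hashtag 6 held 38, 6, 3 and 87. Both sets were picked after their values were seen, so these counts and the thinned shares below describe that pick and add no support to it. Thinned to 1500 UMIs, a red pulp gene was found in 14.3% of the members of hashtag 5 (8.39 to 22.2%), 20% of hashtag 6 (13.5 to 27.9%), 5.13% of hashtag 1 (0.627 to 17.3%) and 6.67% of hashtag 2 (1 of 15). In hashtags 3 and 4 it was found in none of 14 and 17. An adipose gene was found in 53.8, 73.3, 28.6, 29.4, 7.14 and 2.31% of the thinned members in hashtag order. In thinned barcodes with 0 rule genes, a red pulp gene was found in at most 0.311% and an adipose gene in 2.43 to 3.53% in every hashtag, and an interval of 2.30 to 3.58% in hashtag 6 overlapped that of its members (0.478 to 6.60%). In hashtag 5 the interval of the members (3.13 to 13.6%) began just above that of barcodes with 0 rule genes (1.91 to 3.05%).

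Checked against the name red pulp macrophage, the genes Spic, Treml4, Itgad and C6 were all present in the members of hashtags 5 and 6, and Treml4 was at 0 in those of each of hashtags 1 to 4. The other 3 were at 0 in hashtag 4, but were found in shares of members near those of hashtags 5 and 6 in some of the rest. Itgad was found in 7.14% of the members of hashtag 1, against 8.94 and 8.21% in hashtags 5 and 6, and Spic in 11.8% of those of hashtag 2, against 13.8 and 17.9%. Clec4f, the defining gene of Kupffer cells, the liver's macrophages, was at 0 UMIs in all members, and Vsig4, also typical of them, had 4 UMIs. Marco, a scavenger receptor of the splenic marginal zone, had 14 UMIs, of which 7 in hashtag 5 and 6 in hashtag 6. Of the 6 Kupffer cell genes listed, 3 were measured and 2 were higher, and the list summed to 194 CPM in members and 88.5 CPM in barcodes with 0 rule genes. In hashtag 4 it was at 621 CPM, mostly from Id3, a regulator that many cell types express, and Cdh5, which is also on the endothelial list.

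**Figure D2:**
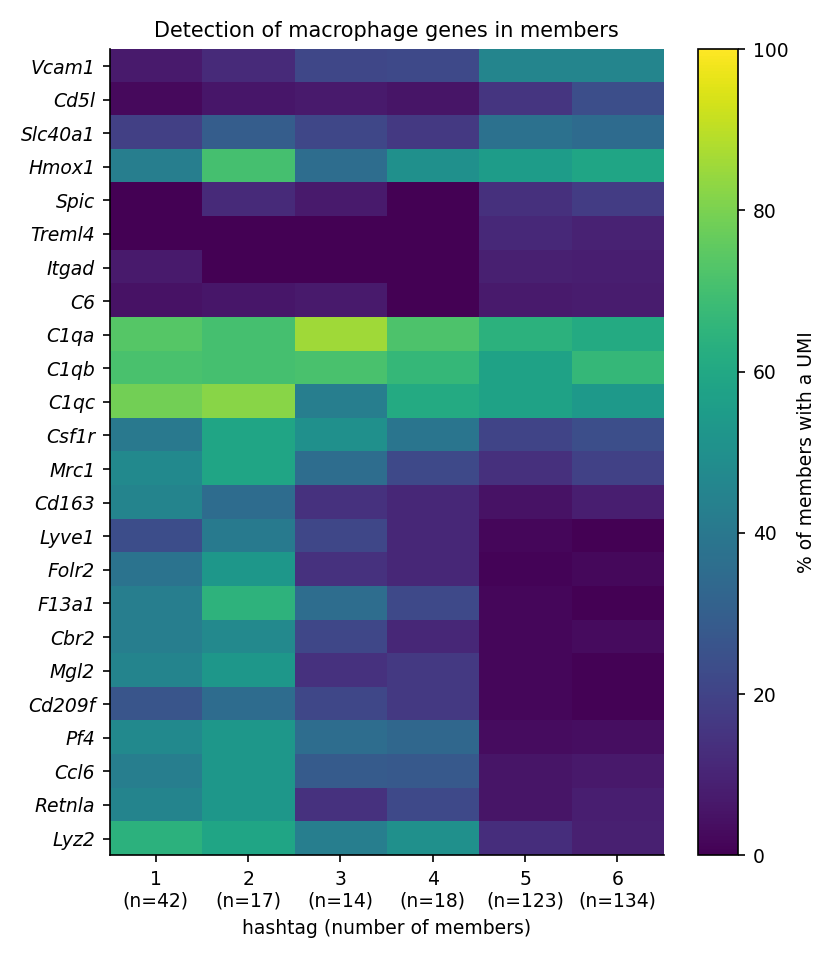
Percentage of members with at least 1 UMI (colour, 0 to 100%) of 24 macrophage genes (rows) in each hashtag (columns, with the number of members). Vcam1, Cd5l and Treml4 are brightest in hashtags 5 and 6 and the genes from Cd163 to Lyz2 in hashtags 1 and 2, while Spic and C6 differ little from hashtags 2 and 3, where each rests on 1 or 2 barcodes.

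Across all genes, with the rule genes left out, 1258 of 8997 genes at 10 CPM or more (14%) were at least 2-fold higher in members than in barcodes with 0 rule genes, and 56 (0.622%) at least 2-fold lower. The median log2 ratio over all genes was 0.19. These are counts of a size difference between 2 sums, not of tests. Without members that held 2 or more stromal, endothelial or B cell genes, 320 were left, and the counts were 644 higher and 115 lower. The first count thus rested in part on those barcodes. The B cell genes used for this were not the full B cell list, of which 205 members held at least 2 genes.

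The 20 genes of largest ratio at 50 CPM or more were mostly macrophage genes. Cd163, the scavenger receptor for hemoglobin bound to haptoglobin, led with a log2 ratio of 7.0 (115 CPM in members, 0.886 CPM in barcodes with 0 rule genes), detected in 46 members. Fcna, a ficolin of the lectin complement pathway, followed at 6.69, detected in 106 members, then Csf1r at 6.63 in 98 members. The others included Fcrls, Lyve1, Folr2, Ms4a7, Mgl2, Ltc4s, Lyz2, Mrc1, F13a1, Cbr2, Adgre1, Pf4, Krt7, Wfdc17, C4b and Retnla, with log2 ratios between 5.80 and 6.50. Krt7, a keratin of epithelial and mesothelial cells, came from 3 barcodes only.

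Several of these were present in the members of every hashtag. Csf1r had 418, 784, 102, 260, 81.3 and 114 CPM in hashtags 1 to 6, and Fcna had 455, 348, 137, 134, 122 and 116 CPM. Adgre1, which encodes the macrophage antigen F4/80, lay between 25.9 CPM (hashtag 6) and 183 CPM (hashtag 2). In the barcodes with 0 rule genes of the same hashtags, Csf1r was at 1.41 to 4.11 CPM and Fcna at 1.16 to 2.82 CPM.

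Of 18 genes listed for red pulp identity, 15 were measured and 13 passed 2-fold higher (median 5.89 on the log2 scale), but the list shares Cd163, Mrc1 and Adgre1 with other resident macrophages. Of the 20 pan-macrophage and myeloid genes, 19 were higher (median 5.28). All 16 adipose tissue resident genes were higher (median 5.59). None of these 3 lists had a lower gene, and the share of higher genes over all genes was the 14% above.

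Among other genes of the red pulp list, Clec4n, a lectin receptor, was at 47.4 and 57.8 CPM in hashtags 5 and 6. Sirpa, the receptor for the self signal CD47, was at 72.3 and 83.7 CPM there. Sirpa was at 53.8 to 133 CPM in hashtags 1 to 4 and so did not set the hashtags apart. Hpgd, which breaks down prostaglandins, and Il18, a cytokine gene, were among the leading genes of hashtag 6 and were chosen after their values were seen. Hpgd was at 122 CPM in 32 members of hashtag 6 and 88.1 CPM in 28 members of hashtag 5. Il18 was at 67.8 CPM in 29 members of hashtag 6 and 47.4 CPM in 15 of hashtag 5.

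Genes of heme and iron handling were higher in part. Of 22 listed, 19 were measured, 10 were higher and 0 lower (median log2 ratio 1.10). Slc11a1, the phagosomal metal transporter, had a log2 ratio of 5.35, Trf, which encodes transferrin, 4.51, and Blvrb, which encodes a biliverdin reductase, 3.10. Trf was at 97.1 and 126 CPM in the members of hashtags 5 and 6 and at 418 to 664 CPM in hashtags 1 to 4. Ftl1, the ferritin light chain, was detected in 327 members and lay between 1452 CPM (hashtag 3) and 3224 CPM (hashtag 1), against 624 to 768 CPM in barcodes with 0 rule genes.

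Uptake and complement genes followed. Of 20 phagocytic receptor and efferocytosis genes, 15 were measured and 10 higher (median 4.20), led by Fcna, then Stab1, a scavenger receptor, at 5.40 and Lrp1 at 4.34. Axl, a receptor tyrosine kinase for apoptotic cells, was at 108 and 116 CPM in hashtags 5 and 6 and at 33.6 to 88.6 CPM in hashtags 1 to 4. Of 15 complement genes other than C1q, 11 were measured and 9 higher (median 4.66), led by the receptors C5ar1 (6.30) and C3ar1 (5.88), of which each had 1 UMI in hashtag 6 and 0 in hashtag 5. Cfp, which encodes properdin, was at 61.0 and 57.8 CPM in hashtags 5 and 6 and at 67.1 to 538 CPM in hashtags 1 to 4.

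Of 24 lysosomal genes 17 were higher (median 1.43), led by Cd63 (4.43), Lgmn, the protease legumain (4.23), and Grn, progranulin (3.75). Of 16 lipid genes, 13 were measured and 5 higher (median 0.44), led by Pltp, the phospholipid transfer protein, at 5.24. Spp1, osteopontin, rested on 3 barcodes, and 60 of its 62 UMIs came from 1 of them. Of 20 chemokine and cytokine genes, 17 were measured, 11 higher and 1 lower (median 4.06). Pf4, Ccl8, Ccl24, Ccl9 and Ccl6 led them, and Ccl9 was at 0 UMIs in the members of hashtags 5 and 6.

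All 8 measured class II antigen presentation genes of 10 listed were higher (median 4.70). The sum of H2-Aa, H2-Ab1, H2-Eb1 and Cd74, the class II chains and their invariant chain, was 16671, 16112, 884, 1971, 1163 and 1306 CPM in the members of hashtags 1 to 6. A single barcode of hashtag 1 held 1275 of the 8128 UMIs (15.7%), and 26 members held 50 or more each.

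Genes of other cell types were found in many members. At least 2 of the listed dendritic cell genes were found in 107 members (30.7%, against 17.0% of barcodes with 0 rule genes), and the list summed to 1327 and 382 CPM. It holds Cst3, a cystatin that macrophages also express and that made up most of this sum in hashtags 1 to 4. At least 2 of the 9 listed B cell genes were found in 205 members (58.9%, against 44.9%). At least 2 stromal and mesothelial genes were found in 10 members and at least 2 endothelial genes in 14. One barcode of hashtag 3 held 972 of the 3532 UMIs of the stromal list, and 1 of hashtag 4 held 264 of the 519 of the endothelial list. Summed, the stromal list had 45.5, 6117, 8291, 3590, 553 and 983 CPM in the members of hashtags 1 to 6. Platelet genes were at 4.29 CPM in members, and S100a8 and S100a9, typical of neutrophils and monocytes, came from 1 barcode of hashtag 2.

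Summed by hashtag, the erythroid list had 116, 94.9, 125, 126, 551 and 2963 CPM in members and 1350, 1321, 1922, 1011, 1425 and 1198 CPM in barcodes with 0 rule genes. The members' sums were thus lower in hashtags 1 to 5. Detection went the other way over all hashtags, with at least 2 erythroid genes in 54 members (15.5%, against 7.01% of barcodes with 0 rule genes). Hbb-bs, the beta chain of hemoglobin, was at 588 CPM in members and 671 CPM in barcodes with 0 rule genes, and 674 of its 958 UMIs came from 1 barcode of hashtag 6, the hashtag where the members' sum was higher. B cell genes summed to 1121 CPM in members and 5943 CPM in barcodes with 0 rule genes, with Igkc, the immunoglobulin kappa constant gene, at 584 and 4599 CPM. By hashtag the B cell list had 1829, 1360, 556, 772, 1019 and 1065 CPM in members. In barcodes with 0 rule genes it had 4655, 13780, 15717, 6312, 1087 and 3665 CPM. In hashtag 5 the 2 sums were thus close, and the pooled difference came from the other hashtags.

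T cell transcripts stood beside the macrophage genes in nearly all members. At least 2 of 6 T cell receptor complex genes (Cd3d, Cd3e, Cd3g, Trac, Trbc1 and Trbc2, which encode the CD3 chains and the receptor's constant regions) were found in 331 of 348 members (95.1%, 92.3 to 97.1%). The share was 98.1% in barcodes with 0 rule genes and 98.8% in those with 1. In hashtag order it was 85.7, 82.4, 78.6, 94.4, 98.4 and 98.5% of members. In barcodes with 0 rule genes it was 97.0, 97.0, 96.0, 97.1, 99.5 and 99.5%. It was 93.3% in B cell-like barcodes (85.1 to 97.8%), which overlaps the members' interval, and 82.4% in endothelial-like barcodes (75.1 to 88.3%), which lies below it. After thinning it was 89.9% in members (86.1 to 93.0%), 97.1% in barcodes with 0 rule genes, 71.8% in B cell-like (59.9 to 81.9%) and 61.8% in endothelial-like barcodes (53.0 to 70.0%).

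By amount, the medians of B cell-like and endothelial-like barcodes were lower, while those of members and of barcodes with 0 rule genes were close. Members had a median of 50.4 T cell receptor complex UMIs per 10000 UMIs (quartiles 34.5 and 66.4), barcodes with 0 rule genes 53.2 (38.8 and 71.0), B cell-like barcodes 23.2 and endothelial-like barcodes 19.4. In hashtag order the members' medians were 35.1, 9.42, 29.3, 33.9, 54.4 and 53.1, and those of barcodes with 0 rule genes 47.9, 46.3, 46.0, 42.5, 65.1 and 58.3. Members were lower in each of the 6 hashtags. In members with 2 to 19 rule UMIs the medians were 46.9, 43.8, 34.6, 36.2, 55.7 and 53.1, still lower in each hashtag, by less in hashtags 1 and 2.

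Each of the 6 genes was lower in the members' sum. Cd3g, with the largest difference, was at 706 CPM in members and 989 CPM in barcodes with 0 rule genes (log2 ratio -0.49), and Cd3e, with the smallest, at 428 and 522 CPM (-0.28). In this sum over all hashtags, no gene of the complex passed 2-fold, nor did any of 19 T cell signalling and identity genes (median log2 ratio -0.36). By hashtag the differences were larger in hashtags 1 to 4. The complex summed to 2641, 1341, 1296, 2332, 5871 and 5677 CPM in members. In barcodes with 0 rule genes it summed to 5044, 4735, 4695, 4402, 6670 and 6004 CPM. The 19 genes summed to 1518 against 5003 CPM in hashtag 2 and to 5745 against 5691 CPM in hashtag 5. Cd2, an adhesion receptor of T cells, had the largest difference of the 19 in the sum over all hashtags, with 261 and 412 CPM.

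T cell receptor transcripts were scarce in a minority of members. Of the 17 members with 0 or 1 T cell receptor complex gene, 6 were in hashtag 1, 3 each in hashtags 2 and 3, 1 in hashtag 4 and 2 each in hashtags 5 and 6. They had a median of 26 rule UMIs, against 4 in the others, and 11 of them had a Retnla UMI. Of the 45 members with 20 or more rule UMIs, 20 had under 10 T cell receptor complex UMIs, 8 in hashtag 1, 6 in hashtag 2, 2 each in hashtags 3, 4 and 5 and 0 in hashtag 6. The members with all 7 rule genes all had at least 2 T cell receptor complex genes (10 of 10), with a median of 51.6 per 10000 UMIs.

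Droplets with 2 cells of the same hashtag pass the tag rule, and no doublet caller on expression was run. Over all hashtags, members and barcodes with 0 rule genes had medians of 3441 and 3118 UMIs and of 1434 and 1249 genes. Their pooled tag counts (medians of 123 and 117) and leading tag shares (94.9 and 95%) were alike. By hashtag, the members' median UMIs were 3930.5, 6306, 4589, 3691, 3153 and 3450.5. Those of barcodes with 0 rule genes were 2719.5, 2779, 2713, 2761, 3364 and 3484. Members were thus deeper in hashtags 1 to 4 and not in hashtags 5 and 6. The part of doublets and of free RNA in these values was not tested.

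**Figure D3:**
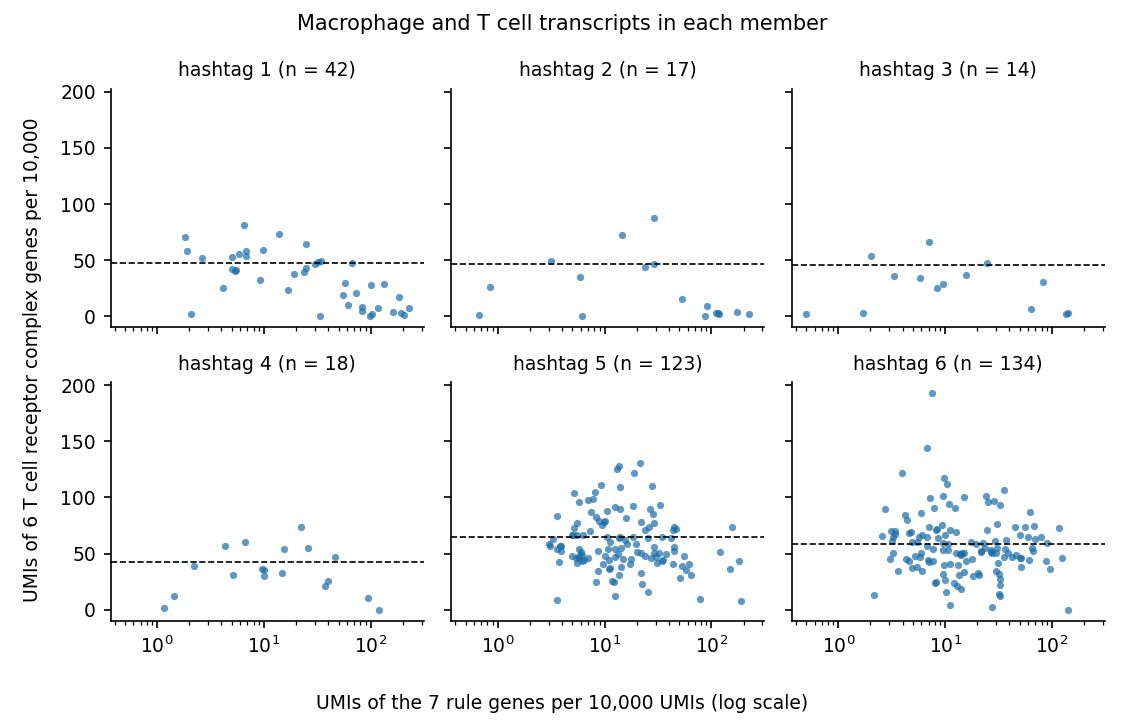
Each point is 1 member, by UMIs of the 7 rule genes per 10000 UMIs (x axis, log scale) and UMIs of the 6 T cell receptor complex genes per 10000 (y axis), in 1 panel per hashtag; dashed lines mark the median of barcodes with 0 rule genes in that hashtag. In hashtags 1 and 2 the strongest members lie near 0 on the y axis, while most members of hashtags 5 and 6 lie near the dashed lines at 65.1 and 58.3.

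T cell subset genes were set against the T cell receptor complex of the same barcodes. Per 100 T cell receptor complex UMIs, in barcodes with at least 2 of these genes, the list of adipose Treg genes had 51.3, 89.6, 56.8, 55.0, 4.58 and 3.58 UMIs in members and 35.7, 55.4, 28.5, 54.4, 2.85 and 2.86 in barcodes with 0 rule genes. Il1rl1, the IL-33 receptor of adipose Tregs, had 5.06 (3.46 to 7.15) in the members of hashtag 1 against 4.06 (3.87 to 4.27), and 0.501 (0.267 to 0.856) in those of hashtag 5 against 0.179 (0.150 to 0.213). The list holds Ccr1, Ccr2 and Pparg, which macrophages also express, and Ccr1 was the only 1 of its 10 genes past 2-fold higher in members. The naive T cell list had 32.0, 95.3, 60.6 and 53.6 UMIs in the members of hashtags 1 to 4 and 19, 21.5, 25.5 and 26 in barcodes with 0 rule genes. The Th1 list had 140 against 77.9 in hashtag 1, but 45.1 against 83.2 in hashtag 3 and 41.7 against 64.2 in hashtag 4. Igfbp4 of the naive list, a secreted protein gene that stromal cells also express, had 35.1 against 1.09 in hashtag 2, and its source was not tested.

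In the larger groups of hashtags 5 and 6, Ikzf2 and Izumo1r were higher in members and Ccr7 and Dapl1 lower. Ikzf2, which encodes the Treg factor Helios, had 7.94 UMIs per 100 T cell receptor complex UMIs in the members of hashtag 5 (6.89 to 9.10) and 4.09 in barcodes with 0 rule genes (3.94 to 4.24). In hashtag 6 it had 5.94 (5.08 to 6.90) and 2.92 (2.79 to 3.06). It was detected in 59 of 121 members of hashtag 5 (48.8%) against 31.7%, and in 51 of 132 of hashtag 6 (38.6%) against 24.7%. The Ikzf2 intervals of members and of barcodes with 0 rule genes did not overlap in either hashtag. Ikzf2 was also higher in the members of hashtags 2 to 4, at 21.8 against 10.0, 16.4 against 9.63 and 20.9 against 11.2, while in hashtag 1 the intervals overlapped (9.05 to 14.5 and 10.2 to 10.8).

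Izumo1r, which encodes folate receptor 4, a surface protein of Tregs and anergic T cells, had 8.74 (7.64 to 9.96) against 5.61 (5.44 to 5.78) in hashtag 5. In hashtag 6 it had 7.41 (6.45 to 8.48) against 4.53 (4.37 to 4.70). In hashtag 1 it was lower in members, at 0.949 against 2.74. Cd4 itself had 3.81 (3.10 to 4.64) against 2.49 (2.38 to 2.61) in hashtag 5 and 3.34 (2.70 to 4.08) against 2.61 (2.48 to 2.73) in hashtag 6, where the intervals overlapped narrowly. Foxp3 was detected in 4 members of hashtag 5 (3.31%, 0.908 to 8.25%, against 2.62%) and 8 of hashtag 6 (6.06%, 2.65 to 11.6%, against 2.56%), and a difference was not detectable at this depth.

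Ccr7 and Dapl1, picked from the naive list, were lower in members of hashtags 5 and 6. Ccr7, the receptor that brings naive T cells into lymphoid tissue, had 2.23 (1.70 to 2.89) against 3.0 (2.87 to 3.12) in hashtag 5 and 2.35 (1.82 to 2.99) against 3.92 (3.77 to 4.08) in hashtag 6, and the intervals touched in hashtag 5. Dapl1, a gene of naive and stem-like T cells, had 2.50 against 3.83 and 3.16 against 5.18. The whole naive list differed less in hashtag 5, at 30.5 (28.5 to 32.7) against 33.8 (33.4 to 34.2). In hashtag 6 the list summed to 1842 CPM in all members and 2455 CPM in barcodes with 0 rule genes. Barcodes with exactly 1 rule gene lay between the other groups for Ikzf2, Izumo1r, Ccr7 and Dapl1 in both hashtags, for Ikzf2 at 4.51 in hashtag 5 and 3.74 in hashtag 6. In members with 2 to 19 rule UMIs the Ikzf2 intervals were 6.77 to 8.98 in hashtag 5 and 5.40 to 7.38 in hashtag 6, so the difference did not rest on the strongest barcodes. These genes were picked from lists after their values were seen, and whether macrophages add UMIs of them was not tested.

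**Figure D4:**
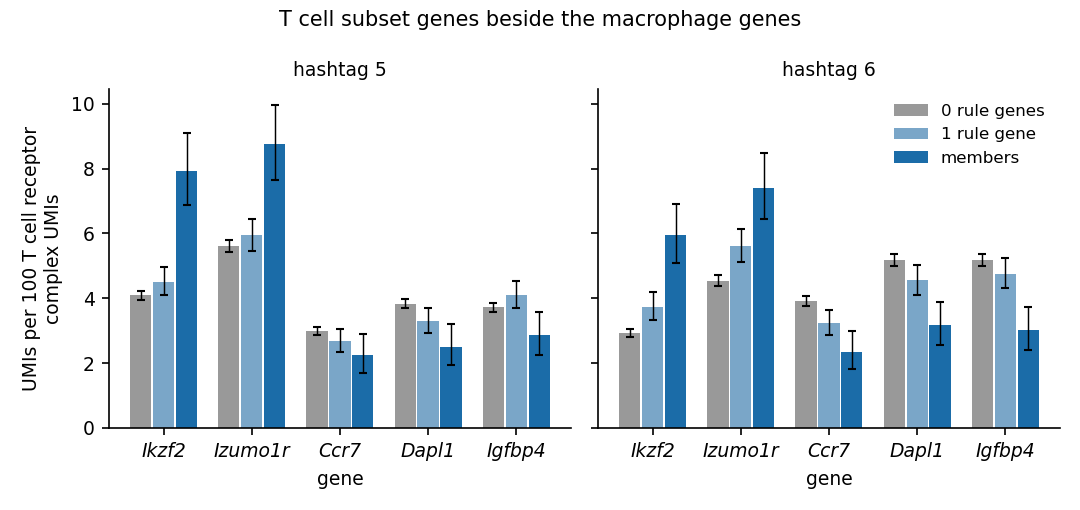
UMIs of 5 T cell subset genes per 100 T cell receptor complex UMIs (y axis) in barcodes with 0 rule genes (grey), 1 rule gene (light blue) and members (dark blue) of hashtags 5 and 6, each with at least 2 T cell receptor complex genes; error bars are exact 95% Poisson intervals. Ikzf2 and Izumo1r are higher and Ccr7 and Dapl1 lower in members, with Ikzf2 at 7.94 and 5.94 against 4.09 and 2.92.

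The C1q genes lie side by side on chromosome 4, C1qb at 136880126-136886200, C1qc at 136889801-136892936 and C1qa at 136895916-136898844 (GRCm38.p6), and all 3 were detected together in 113 members. The bases before the transcript starts of C1qb and C1qc are shown with those of Spic, highest in the members of hashtags 5 and 6, and of Retnla, highest in those of hashtag 1. They are from RefSeq, 250 bases each, 5′ to 3′ on the gene's strand. Capitals mark GAGGAA, a core bound by PU.1 and its relatives, on either strand.
C1qb: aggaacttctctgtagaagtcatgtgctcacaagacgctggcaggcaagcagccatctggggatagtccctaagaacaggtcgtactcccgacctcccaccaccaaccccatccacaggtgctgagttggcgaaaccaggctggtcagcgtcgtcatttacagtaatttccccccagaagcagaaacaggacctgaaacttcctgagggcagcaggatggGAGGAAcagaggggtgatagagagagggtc
C1qc: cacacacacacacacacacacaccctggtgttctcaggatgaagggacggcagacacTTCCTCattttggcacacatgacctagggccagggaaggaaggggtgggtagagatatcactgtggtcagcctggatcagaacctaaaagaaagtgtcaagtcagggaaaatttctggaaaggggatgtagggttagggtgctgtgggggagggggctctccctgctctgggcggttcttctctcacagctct
Spic: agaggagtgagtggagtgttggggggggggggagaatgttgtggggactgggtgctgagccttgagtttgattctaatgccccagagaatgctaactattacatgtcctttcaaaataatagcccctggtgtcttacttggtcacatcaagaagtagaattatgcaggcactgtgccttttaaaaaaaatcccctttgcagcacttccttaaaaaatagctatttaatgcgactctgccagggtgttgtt
Retnla: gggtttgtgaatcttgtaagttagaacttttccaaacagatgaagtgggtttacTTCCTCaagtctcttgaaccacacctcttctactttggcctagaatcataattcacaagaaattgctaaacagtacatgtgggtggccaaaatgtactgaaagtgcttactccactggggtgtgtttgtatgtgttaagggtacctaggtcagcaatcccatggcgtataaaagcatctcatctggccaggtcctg
C1qb spans 4:136886201-136886450 and C1qc 4:136892915-136893164, both on the minus strand, Spic 10:88683024-88683273 on the minus strand and Retnla 16:48842359-48842608 on the plus strand. The last bases of the C1qc stretch lie inside the span of the gene given above, since the transcript start used in the table is not the outermost one. GAGGAA matched once in C1qb, C1qc and Retnla and 0 times in Spic. The motif was found in 23.3% of 32851 promoters of this length, so a match is common. Promoters of 3 of the 7 rule genes, C1qb, C1qc and Cd5l, were in the reference table. That of Cd5l, whose sequence is not shown, also had 1 match.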

How the data were processed

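Gene expression was measured in 1 single-cell 3′ library (10x Genomics, per the labels' protocols) and hashtags in a second library of the same pool. The expression file holds raw UMI counts per gene and barcode, as deposited and not normalised, with cellranger 4.0.0 named per the file headers. The submitters' processing notes instead name Cell Ranger 6.0, Seurat 3 and mm10, and the conflict was not settled. The hashtag file holds counts per tag for 149999 barcodes, as deposited; its tool, and whether it counts reads or UMIs, are not given in the sources used here. Of the expression barcodes, 22952 were also in the hashtag file, 21236 passed the gene and mitochondrial filters and 14382 also the tag rule, which removes most droplets of mixed hashtags.

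The members, gene lists and sets were chosen with earlier results of these data known. Counts were summed over barcodes and given as CPM or as UMIs per 10000. Ratios used genes at 10 CPM or more in either sum, a prior count of 0.5 and a log2 threshold of 1. No test was made, since 1 library holds all groups. Shares carry exact Clopper-Pearson and CPM exact Poisson intervals at 95%. Named genes were the rule genes, the T cell receptor complex genes, leading genes of each of 34 lists, the 20 largest ratios at 50 CPM or more and the 8 largest ratios between hashtags, and others are said to be picked later. The reference names held 54349 of the 55487 gene IDs. Ratios were checked on simulated counts. Alternatives changed the rule, the filters, the tag rule, the prior count and the comparison barcodes. Sums and intervals were made with scipy 1.17.1 and pandas 2.3.3 on Python 3.11.15 with numpy 2.4.6, and figures with matplotlib 3.10.9. One gene that the naming rule picked is not reported here.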

Additional observations from a re-analysis of the deposited data

Results flagged for a closer look

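Barcodes that failed the tag rule lie outside the report's comparisons. Of 6854 of them that passed the gene and mitochondrial filters, 385 (5.62%, exact 95% Clopper-Pearson interval 5.08 to 6.19%) had 2 or more rule genes, which is above the 2.42% of barcodes that passed the tag rule. Their median was 7642 UMIs, against 5841 in all barcodes that failed the tag rule and 3441 in members. Their median of T cell receptor complex UMIs was 41.0 per 10000, against 50.4 in members.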

How the results depend on the processing

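The share of members was 1.38% with at least 3 rule genes, 0.890% with at least 4, 1.54% with at least 2 C1q genes, 1.80% without Hmox1 and Vcam1, and 3.45% with no tag rule. It was 1.46% after thinning, 2.09% without hashtag 5, 1.95% without hashtag 6 (1.95 to 2.65% over the 6 hashtags left out in turn) and 2.11% without members of 20 or more rule UMIs. The share of members with 2 or more T cell receptor complex genes, 95.1% as reported, was 91.4% with at least 4 rule genes, 97.3% with a leading tag of at least 90%, 85.9% with members chosen after thinning, and 97.7% without members of 20 or more rule UMIs. Of the 18 alternatives for each of these shares, 9 and 14 stayed within the reported interval.

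The 1258 higher genes became 1930 with at least 4 rule genes, 754 at a minimum of 20 CPM and 11374 with no minimum. They became 644 without members of 2 or more stromal, endothelial or B cell genes, where 320 members were left and the full B cell list was not used. The 56 lower genes became 128 and 164 with at least 3 and 4 rule genes, 95 with at least 2 C1q genes, 16 with no tag rule, 29 at 20 CPM, 714 with no minimum, 121 without hashtag 5, 97 without hashtag 6 and 115 without the stromal, endothelial or B cell members. Fewer or more genes were tested at the other minimums, and elsewhere the cause was not tested. Of 21 alternatives for each count, 17 and 12 stayed within 1.5 times. Leaving out strong or mixed members was chosen after seeing the data. No paired analysis was possible because there is 1 library and no labelled replicate. At a median of 4 rule UMIs per member, depth limits which genes can be seen in a single barcode.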
